A study of Mus musculus with 56 samples.

Results

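Acute phase proteins are plasma proteins that the liver releases in larger amounts during infection, injury or inflammation. The 10 genes described here encode the mouse proteins of this kind that are most often measured, together with Lcn2: Lcn2, Saa1, Saa2, Saa3, Orm1, Orm2, Hp, Crp, Apcs and Cp. They were chosen by name, with earlier results of these data known. All 10 are in the RNA-seq table of 21888 gene symbols, and all 10 passed the filter on low values that left 11354 genes. The table holds the livers of 14 mice on a 129Sv/J background, with 1 library of poly-A RNA per mouse. Of these, 11 carried loxP sites around the precursor of miR-122, the most abundant microRNA of the liver. Uninjected floxed mice formed day 0 (n = 3), and the others were taken 21 days (n = 3), 45 days (n = 3), 100 days (n = 1) or 200 days (n = 1) after rAAV8-Cre, an adeno-associated vector that expresses Cre recombinase from the Ef1a promoter and deletes the floxed segment. The Ef1a promoter is active in many cell types, so the deletion is not restricted to hepatocytes by its promoter. Another 3 mice were germline miR-122 knockouts, which lack the microRNA in every cell from conception and whose labels name no vector. No wild-type mouse is among the 14, so a difference of colony from the floxed mice cannot be told apart from the knockout. No mouse that received a vector without Cre was analysed here, so the effects of the vector, of Cre and of the deletion cannot be told apart. The labels give neither the age nor the sex of the mice.

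The acute phase response is driven by cytokines. Interleukin 6 acts through its receptor and Stat3, interleukin 1 and tumour necrosis factor act through the NF-kB factors, and C/EBP factors take part in both. In the mouse it is serum amyloid A and serum amyloid P component, not C-reactive protein, that carry the strongest response. Some genes of the response are made almost only by hepatocytes, while Lcn2 and Saa3 are also made by neutrophils, macrophages and epithelial cells.

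Levels are FPKM, the number of sequenced fragments of a gene scaled to the length of its transcript and to the depth of the library, and can be set side by side between genes. Differences are those of log2(FPKM + 1) from limma, with a standard error (SE), and a gene was called when its Benjamini-Hochberg adjusted p over all genes tested was below 0.05. Days 100 and 200 were fitted as 1 group of 2 mice. Values of 1 fragment in genes with a single transcript placed the effective depth, in units of 1000000 fragments, at 36.3 to 63.1 in the floxed livers and 25.3 to 33.4 in the knockout livers. The member with the fewest fragments in any library, Saa3 in day 0 mouse B, still rested on about 130 fragments. In 20 symbols, among them the transferrin gene Trf, an exact 0 stood beside a level of at least 100 FPKM in another library, and Alb, the albumin gene, is listed at 0 in all 14. None of the 10 genes is listed at 0 in any library. Of 4 Y-linked genes, the summed level was 51.1 to 66.8 FPKM in 1 library each of day 0 (mouse B), day 21 (mouse C), day 45 (mouse C) and the knockout (mouse C), and at most 0.061 FPKM in the other 10. Values among the 10 libraries without Y-linked genes, an alternative chosen after the data were seen, are given below for the comparisons with day 0 where a call differed in them.

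The microRNA itself was read from 11 small RNA libraries that carry the group and replicate labels of the floxed livers. The labels do not say whether these are the same livers. There miR-122 made up 59.2% to 73.3% of the microRNA reads at day 0, 8.22% to 13.2% at day 21 and 0.383% to 1.23% at day 45. It then stood at 4.46% in the library of day 100 and 19.1% in the library of day 200. The 3 day groups did not overlap. No small RNA library of the 3 knockout livers was analysed here.

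The genes lie on 6 chromosomes of the mm9 genome, given here by the GENCODE annotation of that build, and several are neighbours. Lcn2, which encodes lipocalin 2, a binder of bacterial siderophores, is on chromosome 2 at chr2:32240153-32243317. Saa1, Saa2 and Saa3 are within 1 cluster on chromosome 7, at chr7:53995871-53998350, chr7:54007203-54009684 and chr7:53967368-53971046. Orm1 and Orm2, which encode alpha-1-acid glycoproteins, a carrier of basic and lipid-like molecules in plasma, are at chr4:63005594-63009197 and chr4:63023483-63026912, with Orm3 between them. Hp, haptoglobin, the scavenger of free hemoglobin, is at chr8:112099030-112103072. The pentraxin genes Crp and Apcs are on chromosome 1, at chr1:174628187-174630097 and chr1:174824093-174825185. Cp, ceruloplasmin, the copper-carrying ferroxidase, spans chr3:19857054-19909145. All 10 are protein-coding, with 2 exons in the longest transcript of Crp and of Apcs and 20 in that of Cp. The annotated transcripts of Saa1 and Saa2 are 92.7% identical over their alignment and those of Orm1 and Orm2 91.0%, so fragments can be shared between these copies and the split between them is uncertain.

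The stretches around the starts of the 5 genes that were called at day 45 are shown so that the promoter letters of the genes that were called can be read beside each other. They run from 250 bases before the annotated start to 50 bases after it, from RefSeq on GRCm38.p6, at chr2:32387690-32387989 for Lcn2, chr7:46742931-46743230 for Saa1, chr7:46751583-46751882 for Saa2, chr7:46715627-46715926 for Saa3 and chr4:63362199-63362498 for Orm2. Lcn2, Saa1 and Saa3 are on the minus strand and Saa2 and Orm2 on the plus strand, and each is written 5′ to 3′ in the direction of its gene. Capitals mark matches to TTGCNNAA, a C/EBP motif searched on both strands, and to TATAAA, searched on the strand of the gene.
Lcn2: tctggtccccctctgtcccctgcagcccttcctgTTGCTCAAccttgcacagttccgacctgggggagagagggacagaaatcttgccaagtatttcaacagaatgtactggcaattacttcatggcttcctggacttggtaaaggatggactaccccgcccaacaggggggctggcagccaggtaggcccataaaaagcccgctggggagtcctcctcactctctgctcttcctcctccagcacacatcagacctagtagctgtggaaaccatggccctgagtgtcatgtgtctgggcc
Saa1: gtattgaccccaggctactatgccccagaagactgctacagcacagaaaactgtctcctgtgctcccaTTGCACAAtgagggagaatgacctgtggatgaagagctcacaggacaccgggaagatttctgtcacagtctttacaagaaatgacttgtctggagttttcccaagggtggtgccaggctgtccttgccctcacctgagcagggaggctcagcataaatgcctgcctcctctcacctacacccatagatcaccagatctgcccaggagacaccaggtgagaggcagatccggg
Saa2: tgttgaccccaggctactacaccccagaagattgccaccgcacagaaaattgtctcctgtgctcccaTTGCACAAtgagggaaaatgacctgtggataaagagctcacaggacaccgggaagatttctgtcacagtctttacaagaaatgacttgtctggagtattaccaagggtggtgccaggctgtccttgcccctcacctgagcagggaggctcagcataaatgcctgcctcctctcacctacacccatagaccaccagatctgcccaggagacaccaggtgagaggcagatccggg
Saa3: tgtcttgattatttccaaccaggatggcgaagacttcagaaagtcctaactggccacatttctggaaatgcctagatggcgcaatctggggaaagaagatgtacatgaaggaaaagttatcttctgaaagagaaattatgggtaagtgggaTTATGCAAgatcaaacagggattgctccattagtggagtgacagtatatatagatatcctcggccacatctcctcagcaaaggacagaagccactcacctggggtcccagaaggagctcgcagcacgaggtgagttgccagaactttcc
Orm2: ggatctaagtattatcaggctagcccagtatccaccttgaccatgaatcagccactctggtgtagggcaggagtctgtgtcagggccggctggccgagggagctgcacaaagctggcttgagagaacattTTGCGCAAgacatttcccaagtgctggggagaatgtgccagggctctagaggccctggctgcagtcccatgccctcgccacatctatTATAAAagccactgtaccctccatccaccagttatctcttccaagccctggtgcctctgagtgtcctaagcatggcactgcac
Each of the 5 holds 1 match to the C/EBP motif, which 10.8% of the 32851 promoters of this length in the table hold. The match begins 216 bases before the start in Lcn2, 182 in Saa1, 183 in Saa2, 99 in Saa3 and 120 in Orm2. The Saa1 and Saa2 stretches are 95.3% identical and hold the same letters in the match, while those of Saa1 and Saa3 are 50.9% identical. TATAAA is found in Orm2 alone of the 5, against 8.32% of all promoters. Neither TTCNNNGAA, a STAT motif held by 8.30% of promoters, nor the 10-base NF-kB consensus, held by 8.46%, both searched on both strands, is spelled out in any of the 5 windows. Of the other members 3 had an entry. Crp and Apcs hold no C/EBP match, and 1 of the 2 listed starts of Cp holds 1. Apcs holds 1 STAT match. The neighbours Saa4 and Orm3 hold 2 and 1 C/EBP matches, and Saa4 was not called in any comparison with day 0, so the match is not confined to the genes that were called. These are matches of letters in a short window and do not locate binding.

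At day 0 the 10 genes covered a wide range of levels. Hp was highest with 2315 ± 527 FPKM (SD, n = 3), followed by Orm1 with 699 ± 171, Crp with 494 ± 92.7 and Cp with 463 ± 51.5. The lowest Hp and Orm1 mice lay above the highest mouse of the gene next in order, whereas Crp and Cp overlapped. Apcs, the serum amyloid P component, had 216 ± 106 FPKM and overlapped with Saa1, which had 87.5 ± 25.7. Saa2 (33.9 ± 16.1), Orm2 (17.7 ± 11.7), Lcn2 (10.0 ± 6.83) and Saa3 (9.44 ± 1.93) were at the lower end, and neighbours among these 4 overlapped. Lcn2 was the ninth of the 10 by its mean at day 0 and the second highest in the knockout, where its range overlapped that of Orm1.

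**Figure D1:**
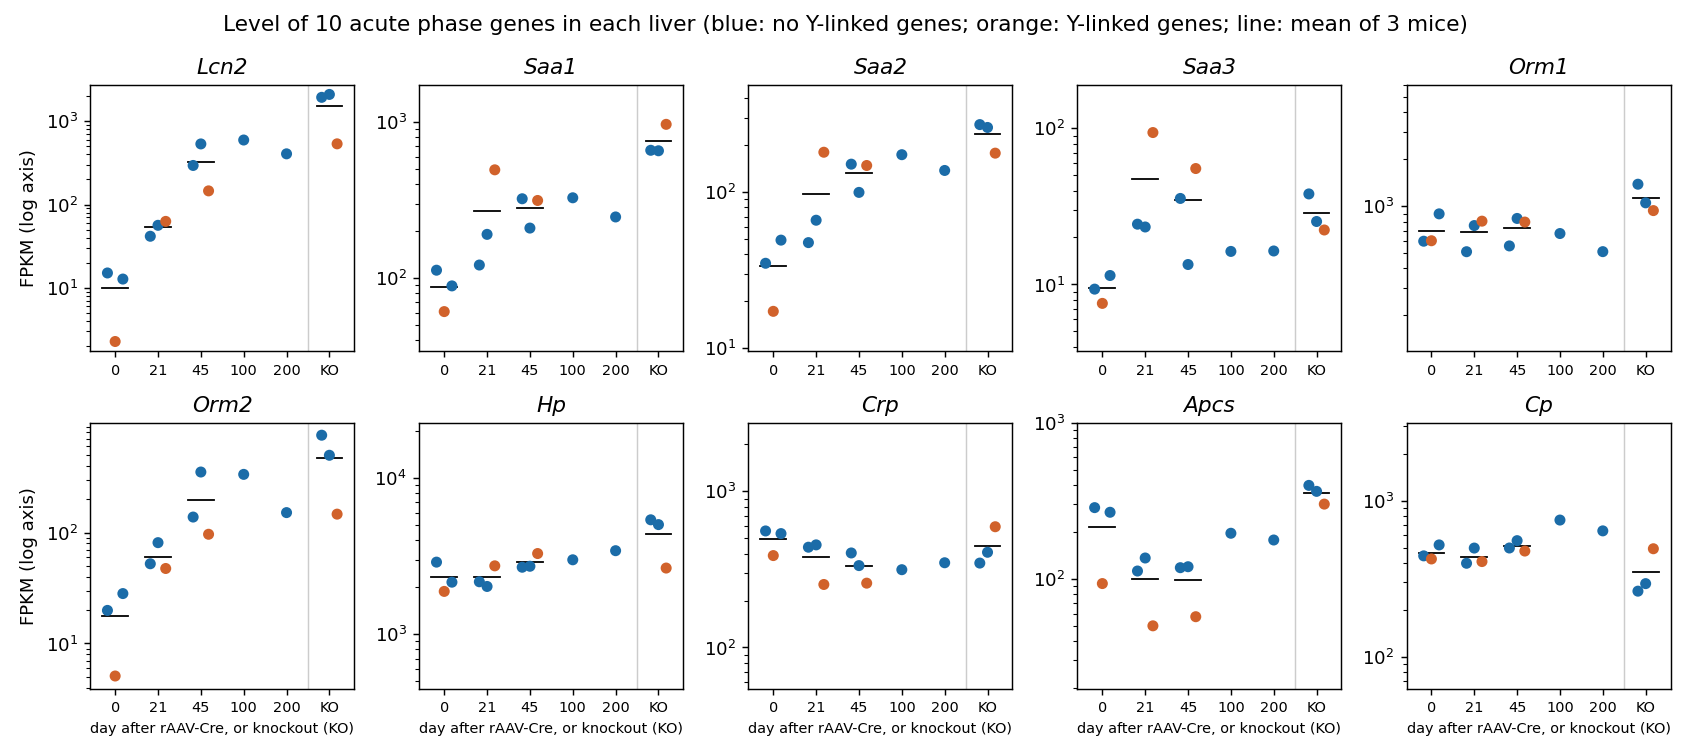
Level of each of the 10 genes in each of the 14 livers, in FPKM on a log axis, by day after rAAV-Cre and in the knockout (KO); each point is 1 mouse, orange points are the 4 libraries with Y-linked genes, and black lines are means of 3 mice. Lcn2 went from 2.27 to 15.1 FPKM at day 0 up to 536 to 2098 FPKM in the knockout, while the 4 lower panels for Hp, Crp, Apcs and Cp cover narrower ranges.

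Lcn2 was above day 0 at every stage after Cre, and its group mean was highest in the knockout. The uninjected livers had 15.1, 2.27 and 12.8 FPKM in mice A, B and C. Day 21 livers had 41.7, 56.4 and 62.8 FPKM, and day 45 livers 295, 534 and 146 FPKM. The mice of day 100 and day 200 had 595 and 406 FPKM, and the knockouts 1937, 2098 and 536 FPKM. No mouse after Cre or in the knockout reached down to the day 0 range, and day 21 and day 45 did not overlap. The difference from day 0 was 2.58 (SE 0.65, adjusted p = 0.0315) at day 21, 4.99 (SE 0.65, adjusted p = 0.000476) at day 45, 5.78 (SE 0.73, adjusted p = 0.000179) at days 100 and 200 and 7.17 (SE 0.65, adjusted p = 2.74e-05) in the knockout, all from limma. In mean FPKM these are 5.34, 32.4, 49.9 and 152 times the day 0 level. The call at day 21 leaned on day 0 mouse B, the library with the lowest level, and without it the difference was 1.85 with an adjusted p of 0.119. Leaving out day 21 mouse A, B or C also ended the call, with adjusted p of 0.0574 to 0.114. Among the 10 libraries without Y-linked genes, which leave that mouse out as well, it was 1.73 with an adjusted p of 0.0165.

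The further steps of Lcn2 were less certain. From day 21 to day 45 the difference was 2.41 (95% interval 0.99 to 3.82, adjusted p = 0.123 by limma), and from day 45 to days 100 and 200 it was 0.79 (−0.79 to 2.37, adjusted p = 0.937). The knockout differed from day 45 by 2.18 (0.77 to 3.60, adjusted p = 0.0521), and knockout mouse C, with 536 FPKM, lay near the highest day 45 mouse at 534. Without knockout mouse C that difference was 2.82 with an adjusted p of 0.00293. With an indicator for Y-linked genes in the fit, an alternative chosen after the data were seen, both day 45 against day 21 (adjusted p = 0.0394) and the knockout against day 45 (adjusted p = 0.0134) were called. Among the 10 libraries without Y-linked genes the same differences were 3.01 and 2.34 (adjusted p = 0.00387 and 0.000306).

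Serum amyloid A is carried by high-density lipoprotein and can rise steeply in mouse plasma. Saa1 had 112, 61.0 and 89.1 FPKM at day 0, and 121, 191 and 494 FPKM at day 21. At day 45 it had 323, 209 and 314 FPKM, at days 100 and 200 it had 327 and 247 FPKM, and in the knockout 659, 655 and 967 FPKM. Every mouse after Cre lay above the 3 uninjected mice, and the knockouts lay above all the others. The difference was called at day 45 (1.69, SE 0.42, adjusted p = 0.0103), at days 100 and 200 (1.73, SE 0.47, adjusted p = 0.0137) and in the knockout (3.12, SE 0.42, adjusted p = 0.000389), while day 21 gave 1.40 with an adjusted p of 0.0635. At day 21 mouse C, the library with Y-linked genes, had the highest level. Without that mouse the difference was 0.83 with an adjusted p of 0.201, and without day 21 mouse A it was 1.84 with an adjusted p of 0.0242. The indicator of Y-linked genes gave an adjusted p of 0.0458 for day 21, and the 10 libraries without them gave 0.60 (adjusted p = 0.2). Without day 0 mouse B the adjusted p at days 100 and 200 was 0.0503. Without the mouse of day 100 the difference at day 200 was 1.53, which rests on 1 mouse with no spread of its own.

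Saa2 moved much like Saa1 at a lower level. Its levels were 35.1, 17.3 and 49.4 FPKM at day 0 and 47.6, 66.3 and 181 FPKM at day 21, where the groups overlapped. Day 45 had 152, 99.9 and 149 FPKM, days 100 and 200 had 174 and 138 FPKM, and the knockout 272, 261 and 178 FPKM, all above day 0. The differences were 2.04 (SE 0.45, adjusted p = 0.00571) at day 45, 2.28 (SE 0.50, adjusted p = 0.00438) at days 100 and 200 and 2.86 (SE 0.45, adjusted p = 0.00105) in the knockout. At day 21 the difference was 1.39 (adjusted p = 0.0843), with 1.78 without mouse A (adjusted p = 0.0459) and 0.83 without mouse C (adjusted p = 0.289). With the 4 libraries with Y-linked genes left out it was 0.42 (adjusted p = 0.316). Without the mouse of day 100 the late group is the 1 mouse of day 200, at 138 FPKM, with no spread of its own. The ratio of Saa2 to Saa1 was 0.283 to 0.554 at day 0, 0.348 to 0.393 at day 21, 0.470 to 0.478 at day 45 and 0.533 and 0.560 at days 100 and 200, so that it overlapped the day 0 range or stood just above it. In the knockout it was 0.184 to 0.412, and the 0.184 of mouse C was below the day 0 range.

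Saa3, the copy that macrophages and other cells outside the hepatocyte also use, had 9.34, 7.56 and 11.4 FPKM at day 0, 24.3, 23.4 and 94.1 FPKM at day 21 and 35.6, 13.4 and 55.3 FPKM at day 45. Days 100 and 200 had 16.3 and 16.4 FPKM, and the knockout 38.0, 25.3 and 22.3 FPKM. All 11 mice other than those of day 0 were above the day 0 range, with the highest levels in the libraries with Y-linked genes at day 21 and day 45. The difference was called at day 21 (1.91, SE 0.53, adjusted p = 0.0444), at day 45 (1.59, SE 0.53, adjusted p = 0.0408) and in the knockout (1.48, SE 0.53, adjusted p = 0.0458), and not at days 100 and 200 (0.75, −0.52 to 2.02, adjusted p = 0.371). These calls are near the threshold. Leaving out any 1 of the day 0 mice ended all 3 (adjusted p of 0.0654 to 0.141). So did leaving out day 21 mouse B or C at day 21, day 45 mouse A or C at day 45, and knockout mouse A or B in the knockout, each for its own comparison (adjusted p of 0.0558 to 0.162). Without day 21 mouse C the day 21 difference was 1.27 with an adjusted p of 0.161, and without day 45 mouse C the day 45 difference was 1.15 with an adjusted p of 0.162. Among the 10 libraries without Y-linked genes the differences were 1.13 at day 21 (adjusted p = 0.0888), 1.02 at day 45 (adjusted p = 0.0586) and 1.501 in the knockout (adjusted p = 0.00602). Saa4, the constitutive member of the cluster that responds little in mice, was not called in any comparison with day 0, with differences of −0.39 to 0.44.

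The alpha-1-acid glycoprotein genes differed from each other. Orm2 had 19.9, 5.09 and 28.2 FPKM at day 0, 52.3, 81.1 and 47.4 FPKM at day 21 and 138, 351 and 96.5 FPKM at day 45. It had 335 and 151 FPKM at days 100 and 200 and 755, 498 and 147 FPKM in the knockout. Each later group lay above the day 0 mice, and in each group of 3 the library with Y-linked genes was the lowest. The differences were 3.44 (SE 0.69, adjusted p = 0.00334) at day 45, 3.87 (SE 0.77, adjusted p = 0.00238) at days 100 and 200 and 4.62 (SE 0.69, adjusted p = 0.000775) in the knockout. Day 21 gave 1.95 (0.45 to 3.44, adjusted p = 0.112). With the indicator of Y-linked genes in the fit the day 21 adjusted p was 0.0196, and among the 10 libraries without them the difference was 1.42 with an adjusted p of 0.102.

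Orm1, the most abundant of the 3 copies, was not called. It had 598, 602 and 896 FPKM at day 0, 512, 754 and 804 FPKM at day 21, 558, 837 and 794 FPKM at day 45, and 670 and 513 FPKM at days 100 and 200. In the knockout it had 1387, 1054 and 940 FPKM, above the highest day 0 mouse, with a difference of 0.70 (0.15 to 1.25, adjusted p = 0.0508). It stayed uncalled there in 11 of 15 refits. Those that called it include the ones without day 0 mouse C (adjusted p = 0.0370) and without knockout mouse C (adjusted p = 0.0202). The intervals after Cre reached from −0.57 to 0.53 at day 21, from −0.48 to 0.62 at day 45 and from −0.84 to 0.39 at days 100 and 200. Orm3 was called at day 45 (2.13, SE 0.52, adjusted p = 0.00925), at days 100 and 200 and in the knockout, from 0.382 to 2.56 FPKM at day 0 to 4.21 to 25.1 FPKM at day 45. Within the summed level of Orm1, Orm2 and Orm3, Orm2 took 0.837% to 3.20% at day 0, 5.55% to 9.65% at day 21, 10.8% to 29.0% at day 45, 32.7% and 22.4% at days 100 and 200 and 13.2% to 34.8% in the knockout. The 3 day groups did not overlap in this share. In each group of 3 mice the lowest share was again that of the library with Y-linked genes.

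**Figure D2:**
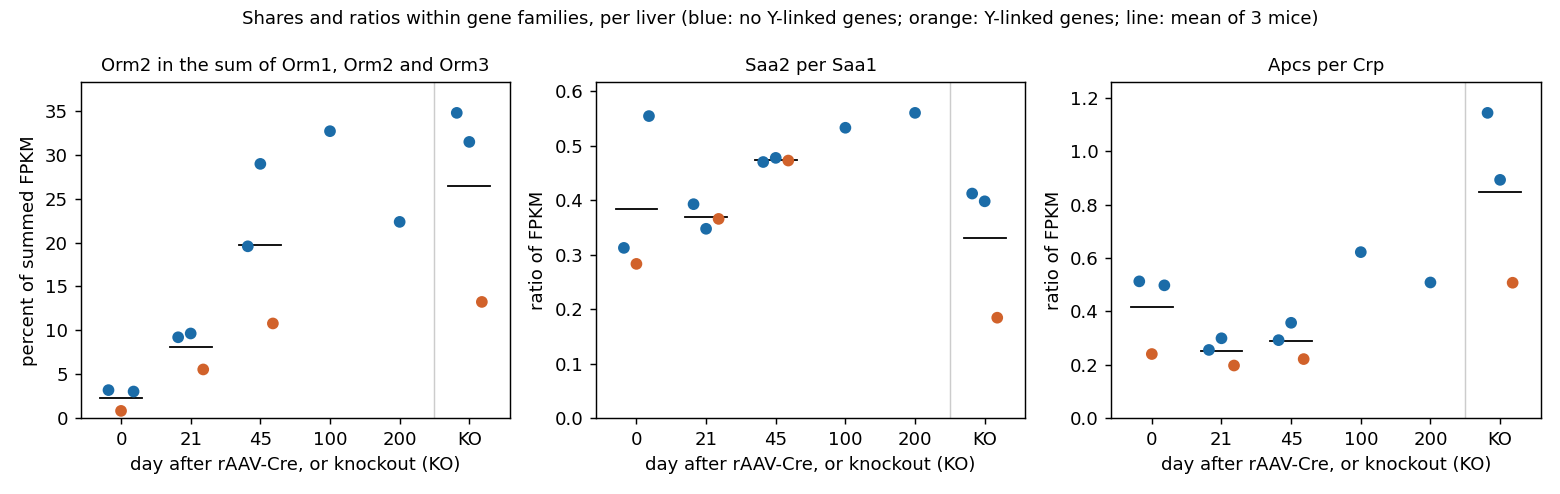
Share of Orm2 in the summed FPKM of Orm1, Orm2 and Orm3 (left), ratio of Saa2 to Saa1 (middle) and ratio of Apcs to Crp (right) in each liver, by day after rAAV-Cre and in the knockout (KO); points are mice, orange for the libraries with Y-linked genes, and lines are means of 3 mice. The Orm2 share was at most 3.20% at day 0 and at least 10.8% at day 45, and the ratio of Apcs to Crp was 0.240 to 0.513 at day 0, 0.197 to 0.357 at days 21 and 45, 0.622 and 0.508 at days 100 and 200 and 0.507 to 1.14 in the knockout.

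Haptoglobin is abundant in plasma at rest. Hp had 2903, 1884 and 2159 FPKM at day 0, 2173, 2027 and 2748 FPKM at day 21, 2692, 2731 and 3295 FPKM at day 45, and 3005 and 3436 FPKM at days 100 and 200. The knockouts had 5420, 5050 and 2660 FPKM, so that mice A and B stood above every other liver while mouse C was within the day 0 range. The knockout difference was called (0.87, SE 0.27, adjusted p = 0.0276), and without mouse C it was 1.20 with an adjusted p of 0.000595. The call ended without day 0 mouse B or C or knockout mouse A or B (adjusted p of 0.0761 to 0.12), with the 2 groups fitted alone (adjusted p = 0.143), with no filter on low values (adjusted p = 0.0825) and with the replicate block (adjusted p = 0.0529). After Cre the differences were 0.01 (−0.58 to 0.60) at day 21, 0.35 (−0.24 to 0.93) at day 45 and 0.50 (−0.16 to 1.15) at days 100 and 200, and none was called.

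The pentraxins Crp and Apcs bind bacterial and damaged-cell surfaces and activate complement. Crp had 558, 388 and 537 FPKM at day 0, 439, 455 and 253 FPKM at day 21, 403, 335 and 258 FPKM at day 45, 315 and 349 FPKM at days 100 and 200 and 347, 408 and 594 FPKM in the knockout. Its groups overlapped with day 0 except at days 100 and 200, whose 2 mice were below it, and it was not called in any comparison with all 14 libraries. Its differences from day 0 were between −0.58 and −0.16, with intervals reaching from −1.22 to 0.44. In the 10 libraries without Y-linked genes, Crp was called lower at day 45 (−0.57, adjusted p = 0.0289), at days 100 and 200 (−0.72, adjusted p = 0.00782) and in the knockout (−0.54, adjusted p = 0.0198), and not at day 21 (−0.29, adjusted p = 0.294).

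Apcs had 286, 93.3 and 267 FPKM at day 0, 112, 136 and 50.035 FPKM at day 21 and 118, 120 and 57.2 FPKM at day 45. It had 196 and 178 FPKM at days 100 and 200 and 397, 364 and 301 FPKM in the knockout. In all 4 groups of 3 the library with Y-linked genes was the lowest, which widened the groups. The differences were −1.07 (−2.04 to −0.09, adjusted p = 0.188) at day 21, −1.04 (−2.02 to −0.06, adjusted p = 0.112) at day 45, −0.05 (−1.14 to 1.05) at days 100 and 200 and 0.87 (−0.11 to 1.85, adjusted p = 0.147) in the knockout. With the indicator of Y-linked genes in the fit the same differences at day 21 and day 45 were called lower (adjusted p = 0.0126 and 0.00431) and the knockout was called higher (adjusted p = 0.0104). Without day 0 mouse B the difference at day 45 was −1.56 (adjusted p = 0.0209). The 10 libraries without Y-linked genes gave −1.15 and −1.21 at day 21 and day 45 (adjusted p = 0.00924 and 0.00149), −0.57 at days 100 and 200 (adjusted p = 0.0163) and 0.46 in the knockout (adjusted p = 0.0279), all called. Apcs was the single member called between the knockout and day 45, with a difference of 1.91 (SE 0.45, adjusted p = 0.0277). Leaving out a single mouse of these groups other than knockout mouse C gave 1.56 to 2.08, with adjusted p above 0.05 and up to 0.103.

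Cp was not called in any comparison with day 0 when all 14 libraries were fitted. It had 444, 424 and 521 FPKM at day 0, 398, 498 and 408 FPKM at day 21, 498, 555 and 476 FPKM at day 45 and 752 and 641 FPKM at days 100 and 200. In the knockout it had 264, 295 and 493 FPKM, with mice A and B below every other liver and mouse C within the day 0 range. The differences were 0.59 (0.06 to 1.12, adjusted p = 0.0873) at days 100 and 200 and −0.45 (−0.93 to 0.03, adjusted p = 0.123) in the knockout. Without mouse C the knockout difference was −0.72 with an adjusted p of 0.00208. Without the 4 libraries with Y-linked genes, Cp was called higher at days 100 and 200 (0.53, adjusted p = 0.0454) and lower in the knockout (−0.79, adjusted p = 0.00544).

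**Figure D3:**
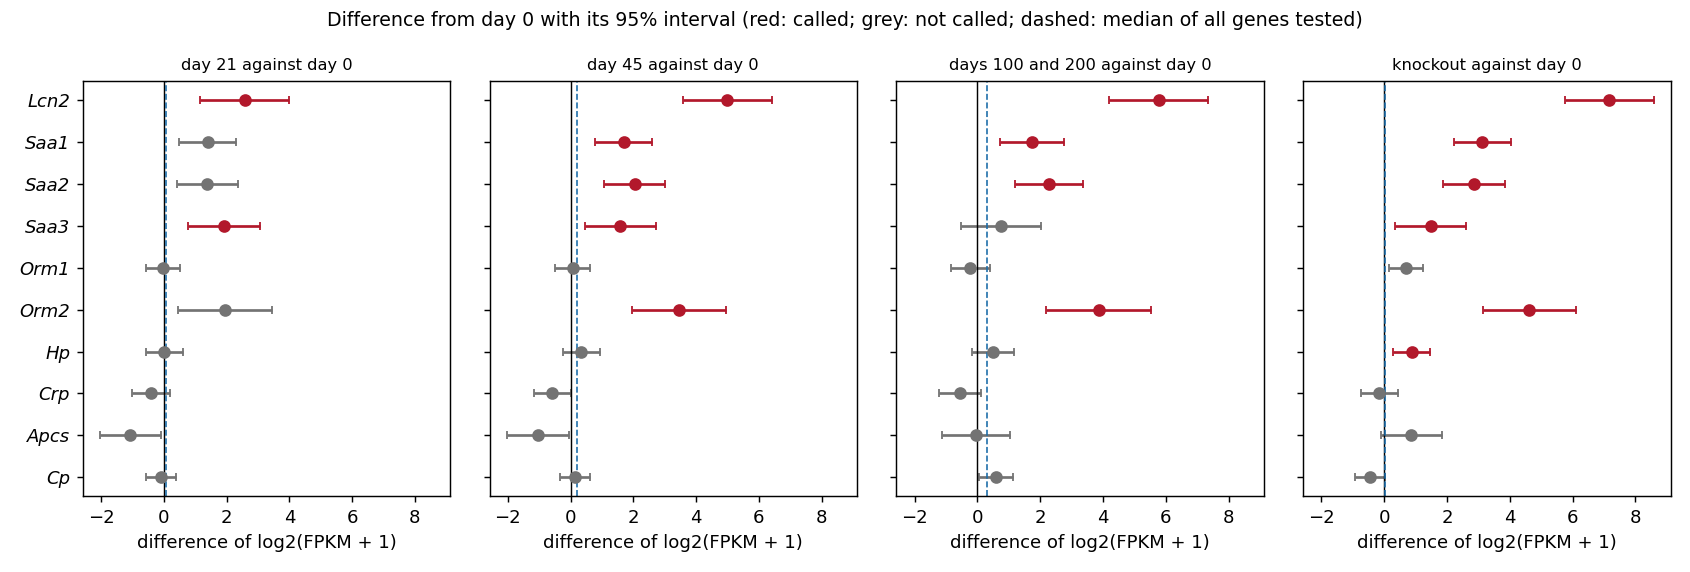
Difference of log2(FPKM + 1) from day 0 for each of the 10 genes at day 21, day 45, days 100 and 200 and in the knockout; points are estimates of limma, bars their 95% intervals, red marks an adjusted p below 0.05, and the dashed line is the median of all genes tested. Lcn2 reached 2.58, 4.99, 5.78 and 7.17, with Orm2 next from day 21 on.

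Counted together, 2 of the 10 genes (Lcn2 and Saa3) were called higher and none lower at day 21, where 6.25% of all genes tested were called higher. At day 45 there were 5 (Lcn2, Saa1, Saa2, Saa3 and Orm2), against 23.7% of all genes, and at days 100 and 200 there were 4 (Lcn2, Saa1, Saa2 and Orm2), against 28.5%. In the knockout 6 were called higher (the 5 of day 45 and Hp), against 19.3% of all genes. No member was called lower, against 1.43%, 3.01%, 3.22% and 14.5% of all genes in the same order. Among the 10 libraries without Y-linked genes 1, 4, 5 and 7 members were called higher, against 4.54%, 24.8%, 34% and 28.6% of all genes in that fit. There 1, 2, 2 and 2 members were called lower, against 1.62%, 4.76%, 5.77% and 28.8% of all genes, namely Apcs at day 21, Crp and Apcs at day 45 and at days 100 and 200, and Crp and Cp in the knockout. The median difference of the 10 genes was 0.70, 0.97, 0.67 and 1.18, beside medians of all genes tested of 0.06, 0.20, 0.31 and 0.02. Relative to the median of all genes, the difference of Lcn2 was 2.52, 4.79, 5.47 and 7.16, and that of Orm2 1.89, 3.25, 3.56 and 4.61. With the libraries centred on their medians, 70.3% of all genes called at day 45 were higher, beside 88.7% as fitted here, and 67.1% beside 89.8% at days 100 and 200. These comparisons share the 3 day 0 mice. Of the 10 genes, 4, 5, 7 and 7 had groups that did not overlap with day 0 and were higher, against 25.2%, 40.5%, 52.9% and 21.1% of all genes.

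Between the later groups few members were called. No member was called between day 45 and day 21, where 0.3% of all genes were called and 2 of the 10 (Lcn2 and Orm2) had an unadjusted p below 0.05, against 16% of all genes. None was called between days 100 and 200 and day 45, where 0.22% of all genes were called, and none had an unadjusted p below 0.05, against 7.81% of all genes. Between the knockout and day 45, 1 of the 10 was called (Apcs, higher), against 1.21% of all genes called higher and 8.26% called lower. Knockout mouse C stood apart from mice A and B in this comparison. Without it 6 members were called higher (Lcn2, Saa1, Orm1, Orm2, Hp and Apcs) and Cp was called lower, against 14.7% of all genes called higher and 37.6% called lower in that fit. Among the 10 libraries without Y-linked genes 7 were called higher (these 6 and Saa2) and Cp lower, against 13.5% and 36.1% of all genes. In mouse C the levels of Lcn2, Saa2, Saa3, Orm1, Orm2, Hp and Apcs were below the other knockouts and those of Saa1, Crp and Cp above them.

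Beside the members, 25 of 27 other positive acute phase genes were tested. None was called at day 21, 4 were called higher and 1 lower at day 45, 4 higher and none lower at days 100 and 200, and 7 higher and none lower in the knockout. Over all genes 6.25%, 23.7%, 28.5% and 19.3% were called higher in the same comparisons. The list's median difference was −0.10, 0.18, 0.24 and 0.57. At day 45 the largest were Il1rn, the interleukin 1 receptor antagonist (2.72, adjusted p = 0.00174), Orm3, Cd14, the co-receptor for lipopolysaccharide (1.90, adjusted p = 0.00647), and Mbl2, a mannose-binding lectin of complement (1.16, adjusted p = 0.0442). At days 100 and 200 they were Cd14 (2.80, adjusted p = 0.000998), Il1rn (2.77), Orm3 (2.73) and Serpina10, an inhibitor of coagulation factors (0.69, adjusted p = 0.0179). Mbl2 did not stay high, with 324 to 1014 FPKM at day 0, 1391 to 1825 at day 21 and 1283 to 1584 at day 45. It had 459 and 258 FPKM at days 100 and 200 and 219 to 425 in the knockout. The fibrinogen genes Fga, Fgb and Fgg, which code for the clot-forming protein that rises in many acute phase reactions, were not among the calls. The metallothionein genes Mt1 and Mt2, which bind zinc and copper and are named after their values were seen, had mean differences of 4.70 and 5.56 in the knockout (adjusted p = 0.00888 and 0.00746). Mt1 had 4652 and 3762 FPKM in knockout mice A and B and 477 FPKM in mouse C, beside 8.60 to 373 FPKM at day 0.

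Of 12 negative acute phase genes, whose plasma proteins fall during the response, 9 to 11 were tested in each comparison. None was called at day 21. At day 45, 2 were called lower, Apoa2, an apolipoprotein of high-density lipoprotein (−0.88, adjusted p = 0.0391), and Fetub (−0.76, adjusted p = 0.0158). At days 100 and 200, 3 were called lower, Apoa2 (−1.15, adjusted p = 0.0165), Fetub (−1.02, adjusted p = 0.0047) and Apoa1, the main apolipoprotein of high-density lipoprotein (−0.94, adjusted p = 0.034). In the knockout 2 were higher and 1 lower. Ttr, transthyretin, the carrier of thyroxine, had 7879 to 9742 FPKM at day 0 and was not called in any comparison with it.

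**Figure D4:**
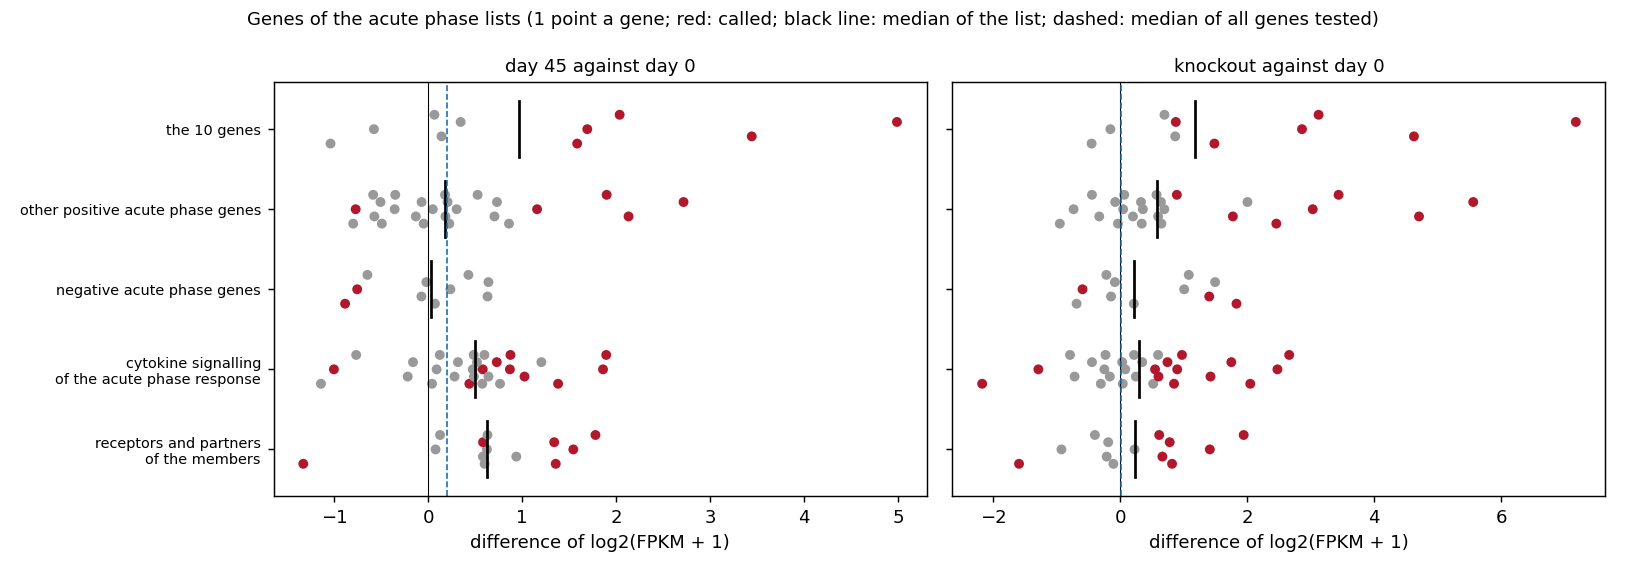
Difference of log2(FPKM + 1) from day 0 at day 45 (left) and in the knockout (right) for each tested gene of the 10 described here and of 4 other lists; red points had an adjusted p below 0.05, black lines are list medians and the dashed line is the median of all genes tested. The median was 0.97 at day 45 for the 10 genes, 0.18 for the other positive acute phase genes and 0.50 for cytokine signalling.

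Of 31 signalling genes of the response 28 were tested, with 3 called higher at day 21, 9 higher and 1 lower at day 45, 12 higher and 1 lower at days 100 and 200, and 11 higher and 2 lower in the knockout. Over all genes 6.25%, 23.7%, 28.5% and 19.3% were called higher and 1.43%, 3.01%, 3.22% and 14.5% lower, and the same shares stand beside the receptors and negative acute phase genes. Socs3, the inhibitor of the interleukin 6 receptor pathway that Stat3 induces, was called at each stage, with 1.13, 1.86, 1.82 and 1.75 (adjusted p = 0.039, 0.0012, 0.00145 and 0.00166). Its level was 2.69 to 7.39 FPKM at day 0 and 16.7 to 18.9 FPKM at day 45. Stat3 itself was called from day 45 on with 0.44, 0.55 and 0.55 (adjusted p = 0.0269, 0.0131 and 0.00941). The NF-kB subunits Relb and Nfkb2 were called at day 45 (1.90 and 1.38), at days 100 and 200 (2.63 and 2.17) and in the knockout (2.66 and 2.05). Il1a, which codes for interleukin 1 alpha, was called at day 45 (1.03, adjusted p = 0.0105). Osmr, a subunit of the oncostatin M receptor, was called at days 100 and 200 (2.01) and Lifr, the leukemia inhibitory factor receptor, was lower there (−1.83, adjusted p = 0.00289).

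Several cytokine and receptor genes of the list were not called. Il6ra, the interleukin 6 receptor, had differences of −0.77 to −0.38 and was not called. Il1r1 and Il1b were not called against day 0 either, with Il1b at 1.93 to 6.72 FPKM at day 0 and 7.84 to 11.7 FPKM at day 45 (1.21, 0.29 to 2.12, adjusted p = 0.0516). Il6 did not pass the filter, with at most 0.23 FPKM in any liver. Tnf, the tumour necrosis factor gene, did not pass it either and was not tested. It had 0.106 to 0.217 FPKM at day 0, 0.478 to 2.07 at day 21 and 1.14 to 2.38 at day 45. At days 100 and 200 Tnf had 2.085 and 1.091 FPKM and in the knockout 0.309 to 0.445, so that every later mouse was above day 0. Cebpb and Cebpd, C/EBP factors of the response, were called in the knockout (2.48 and 1.42, adjusted p = 0.0184 and 0.0201) and not after Cre. Cebpb had 101, 118 and 11.4 FPKM in knockout mice A, B and C and 5.83 to 13.7 FPKM at day 0, so that mouse C was within the day 0 range.

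Of 16 genes for receptors and partners of the members 13 were tested, with 4 higher and 1 lower at day 21, 5 higher and 1 lower at day 45, and 6 higher and 1 lower both at days 100 and 200 and in the knockout. Hmox1, heme oxygenase 1, which degrades the heme that haptoglobin and hemopexin bring to cells, was called at day 45 (1.78, adjusted p = 0.00176) and at days 100 and 200 (1.17, adjusted p = 0.022). Tlr2, a receptor reported for serum amyloid A, was called with 1.55 and 1.97, and the Fc receptor genes Fcgr1 and Fcgr3, to which pentraxins bind, with 1.36 and 1.34 at day 45 and 1.32 and 1.76 at days 100 and 200. Bdh2, another gene of this list, went the other way and was below the day 0 range in every later mouse. It had 12.2 to 17.0 FPKM at day 0, 5.28 to 8.08 at day 21 and 3.74 to 6.66 at day 45. At days 100 and 200 Bdh2 had 5.74 and 8.64 FPKM, and in the knockout 2.64 to 5.69. Slc22a17, a lipocalin 2 receptor gene, did not pass the filter, with 0.146 to 0.296 FPKM at day 0 and 0.587 to 1.67 FPKM at day 45. Fewer cells of a type and less RNA per cell cannot be told apart in these whole-liver libraries.

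Markers of several other cell types also differed between the groups, in patterns that varied by cell type. Over all genes 6.25%, 23.7%, 28.5% and 19.3% were called higher at day 21, day 45, days 100 and 200 and in the knockout. In the same order 1.43%, 3.01%, 3.22% and 14.5% were called lower, and these shares stand beside each marker count below. The table holds 12 neutrophil markers, of which 7 were tested, with 3, 3, 5 and 7 called higher at day 21, day 45, days 100 and 200 and in the knockout. Their summed level was 5.39 to 21.0 FPKM at day 0, 46.5 to 144 at day 21, 48.1 to 88.6 at day 45, 119 to 205 at days 100 and 200 and 35.3 to 194 in the knockout. S100a8 and S100a9 made up most of it. Among granule genes of neutrophil precursors, Ngp was at most 0.098 FPKM at day 0, 0.463 to 0.727 at day 21, 0.143 to 0.447 at day 45 and 0.296 to 6.58 in the knockout. In the same order Camp was at most 0.076, 0.283 to 0.709, 0.36 to 0.547 and 0.538 to 7.18, and Prtn3 at most 0.466, 0.219 to 0.344, 0.262 to 1.52 and 1.13 to 11.2. At day 21 Ngp was above the day 45 range in each mouse. The mouse of day 100 had 0.715, 0.477 and 7.20 FPKM of Ngp, Camp and Prtn3, and that of day 200 had 2.90, 2.43 and 2.89. Ngp and Camp, which are among the 7 markers tested, passed the filter on low values only through the knockout, with means of 0.595 and 0.515 FPKM over the other 11 livers, so no weight is put on their calls there. Ltf was at most 1.23, Elane at most 0.829 and Mpo at most 0.272 FPKM in any liver. From day 21 to day 45 none of these 7 markers was called. All 11 macrophage markers were called higher at day 45, and 4, 6 and 5 at day 21, at days 100 and 200 and in the knockout. Their sums were 257 to 465 FPKM at day 0, 642 to 823 at day 21, 910 to 1017 at day 45, 918 to 1089 at days 100 and 200 and 327 to 867 in the knockout. Cholangiocyte markers summed to 46.5 to 59.7 FPKM at day 0, 138 to 204 at day 21, 407 to 1337 at day 45, 1926 to 2930 at days 100 and 200 and 557 to 801 in the knockout, with 2 of 6 tested called at day 21 and 6 of 6 in the others. Most of this sum is Spp1, with 40.9 to 54.6 FPKM at day 0, 129 to 195 at day 21, 383 to 1259 at day 45, 2866 and 1854.5 at days 100 and 200 and 506 to 732 in the knockout. Krt19 and Krt7 were not called at day 21 (0.15 and 0.05) and were called at day 45 (2.17 and 2.05). Of 7 lymphocyte markers tested 6, 6, 6 and 3 were called higher, of 7 endothelial ones 2, 3, 3 and 0, with 2 lower in the knockout, and of 9 stellate and fibroblast ones 1, 8, 9 and 5. Lymphocyte sums were 3.49 to 6.94 FPKM at day 0, 21.8 to 46.6 at day 21, 16.6 to 24.2 at day 45, 20.3 to 32.5 at days 100 and 200 and 7.69 to 22.4 in the knockout. Endothelial sums were 87.8 to 150 FPKM at day 0, 152 to 172, 180 to 184 and 166 to 177 after Cre and 74.3 to 84.3 in the knockout, and stellate and fibroblast sums 141 to 192, 289 to 306, 373 to 604, 538 to 551 and 198 to 291 in the same order. Of the 12 hepatocyte markers, Alb is listed at 0 in all libraries and Serpina1e in 3 (day 0 mouse B and mouse C of days 21 and 45). The other 10 summed to 28429 to 31114 FPKM at day 0, 26843 to 27990 at day 21, 21811 to 28874 at day 45, 15128.5 to 24482 at days 100 and 200 and 24776 to 32386 in the knockout. Of 11 hepatocyte markers tested, Serpina1e included, 0, 0, 1 and 1 were called higher and 0, 1, 2 and 1 lower in the same order of comparisons. Of 8 adipose and pancreas markers 7 were below 0.1 FPKM in every library of each group, and the 1 tested was not called. The part of these cells in the levels of the 10 genes was not tested.

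The genes whose levels ran closest to each member over the 14 libraries are given as a description, since the libraries share groups. Among 3328 genes with an SD of at least 0.5 on the log2 scale, Lcn2 had the highest Pearson correlation with Ccdc120 (r = 0.977), Orm2 (0.976), Cd320 (0.975), Gpx7 (0.974) and Ucp2 (0.974). For Orm2 they were Lcn2 (0.976), Endod1 (0.972), Gpx7 (0.970), Cd320 (0.965) and Ucp2 (0.964). Saa1 ran closest to Saa2 (0.932), Pla2g7 (0.878), Mapkapk2 (0.867), Slc19a1 (0.866) and Maf1 (0.856). Saa2 ran closest to Pla2g7 (0.942), Saa1 (0.932), Ucp2 (0.921), Plac8 (0.916) and Arl2 (0.915). Ucp2, a mitochondrial carrier, is in 3 of these 4 sets, with 4.88 to 9.69 FPKM at day 0, 38.1 to 52.1 FPKM at day 45 and 33.9 to 92.7 FPKM in the knockout. Gpx7, a peroxidase of the endoplasmic reticulum, is in the sets of Lcn2 and Orm2, with 1.57 to 2.68 FPKM at day 0 and 15.2 to 24.9 FPKM at day 45.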

How the data were processed

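RNA-seq values are FPKM that the authors obtained with Cufflinks 2.2.1, using its quartile normalization, after TopHat alignment of paired-end poly-A libraries to mm9. Sequences from ribosomal, snoRNA and mitochondrial genes had been taken out by the authors. The small RNA table of the authors holds a score per microRNA, RPM from Bowtie 0.12.7 alignments with 1 added, as deposited. Here 1 was subtracted and miR-122 given as a percent of the sum of the listed values. The RNA-seq table has 22308 rows. The rows of the 224 symbols with several rows were summed, 3 unnamed columns with no sample were not used, and an exact 0 in a gene reaching 100 FPKM elsewhere was treated as missing (20 symbols).

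limma 3.58.1 in R 4.3.3 was fitted to log2(FPKM + 1), with all 5 groups in the same model and eBayes with trend, after genes averaging below 1 FPKM had been dropped, since FPKM are not counts and allow no count model. All p-values are two-sided and adjusted by Benjamini-Hochberg over all genes of a comparison, with a threshold of 0.05. The scripts were tested on simulated data. Effective depth was read from the step of 1 fragment in genes with 1 transcript. Promoters were taken from RefSeq, where 8 of the 10 members had an entry, and Orm1 and Hp had none used here. The members, lists and motifs were chosen with earlier results of these data known. Named list genes are the called ones with the largest differences from day 0 at day 45 and at days 100 and 200, up to 4 per list, and 11 genes set by name, and 5 genes closest to each member called at days 100 and 200 were named by correlation. Whether the mice share litters or batches is not given in the sources used here. Tables and figures used Python 3.11.15 with biopython 1.88.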

Additional observations from a re-analysis of the deposited data

Results flagged for a closer look

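Apcs, the gene of serum amyloid P component, was the 1 member called in the 3 comparisons run between groups other than day 0 (day 45 against day 21, days 100 and 200 against day 45, and the knockout against day 45). The knockout was not compared with day 21 or with days 100 and 200. It was 1.91 higher on the log2 scale in the knockout than at day 45 (SE 0.45, adjusted p = 0.0277 by limma), with 354 ± 48.7 FPKM (SD, n = 3) in the knockout and 98.3 ± 35.6 FPKM (SD, n = 3) at day 45, and the 3 knockout mice were above the 3 day 45 mice. The fit of these groups alone gave an adjusted p of 0.0566, the replicate block 0.0517, and leaving out any 1 of the 6 mice other than knockout mouse C gave differences of 1.56 to 2.08 with adjusted p up to 0.103, so that the call ended in each of these. In the same comparison Lcn2 and Saa1 had adjusted p of 0.0521 and 0.0509, and were not called. Both groups held 1 library with Y-linked genes. With an indicator of these genes in the fit the difference was again 1.91 (adjusted p = 0.000525), and it was 1.67 among the libraries without them (adjusted p = 0.000101). The ages of the mice are not given in the labels.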

How the results depend on the processing

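At day 21 the count of members called, 2 with all choices as reported, became 0 with no filter on low values, 1 with the libraries centred on the median, 1 with the replicate block and 5 with an indicator of Y-linked genes, and 0 to 3 when single mice were left out. Day 45 (5 calls) gave 4 to 6 under every alternative. Days 100 and 200 (4 calls) gave 2 with day 200 alone, 7 among the 10 libraries without Y-linked genes and 2 to 4 when single mice were left out, with 2 without the mouse of day 100. The knockout (6 calls) gave 4 to 9. Day 45 against day 21 (0 calls) gave 1 with the indicator and 1 among the 10 libraries, in both Lcn2. Days 100 and 200 against day 45 gave 0 throughout. The knockout against day 45 (1 call) gave 2 with eBayes without trend, 0 with the groups compared alone, 0 with the replicate block, 3 with the indicator, 8 among the 10 libraries and 0 to 7 when single mice were left out, with 7 without knockout mouse C. The 2 alternatives on Y-linked genes were chosen after the data were seen. Of all genes, 14.4% were called with day 200 alone, 39.8% at days 100 and 200 and 57.4% in the knockout among the 10 libraries, and 9.09% at day 21 with the indicator. These counts hold calls in both directions. Members called lower were 1, 1 and 0 at day 21, day 45 and days 100 and 200 and 0 in the knockout with the indicator, 1, 2, 2 and 2 among the 10 libraries, 1 at day 45 without day 0 mouse B, and 1 (Cp) in the knockout without its mouse C.

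The letters A to C were not found to pair the mice, since the 18 correlations of same-letter deviations ran from −0.53 to 0.59 and 8 were above 0.1. With the replicate block the 5 calls of day 45 were 5, those of the knockout 5, and Lcn2 at day 21 had an adjusted p of 0.0734. The 18 differences of single members that were called, and 12 picked from those that became called under at least 1 alternative, kept their sign in 450 refits. Of these, 375 stayed on the same side of the threshold, 49 lost a call and 26 gained one. Among the other 40 differences, none of them called with all choices as reported, 14 with a size of at most 0.43 changed sign in 1 or more refits (48 of 600). Some of the 40 were called under an alternative. Among these, Apcs at days 100 and 200 changed sign in 4 of 15 refits and Crp in the knockout in 1 of 15. The differences of Lcn2, Saa1, Saa2 and Orm2 at day 45 and in the knockout, and of Lcn2 and Orm2 at days 100 and 200, were called in each alternative run. Centring the libraries on their medians changed the share of all calls that were higher from 88.7% to 70.3% at day 45, from 89.8% to 67.1% at days 100 and 200 and from 12.8% to 39.9% in the knockout against day 45, and ended the calls of Saa1 at days 100 and 200 (adjusted p = 0.0516) and of Saa3. Over the alternatives all genes called ranged from 244 to 1786 at day 21 (871), 1783 to 4315 at day 45 (3031), 1632 to 5812 at days 100 and 200 (3595) and 1116 to 7090 in the knockout (3836). The ranges were 0 to 185 for day 45 against day 21 (34), 1 to 228 for days 100 and 200 against day 45 (25) and 62 to 5932 for the knockout against day 45 (1074). The cause of these changes was not tested. With 1 to 3 mice a group, intervals of single members are wide, and groups of 1 mouse have no spread of their own.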
